A study of Mus musculus with 11 samples.

Results

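Myeloid C-type lectin receptors are single-pass membrane proteins through which macrophages, monocytes, neutrophils and dendritic cells bind sugars, lipids, crystals and material released by dead cells. The activating receptors signal through an ITAM motif, carried by the adaptors Fcer1g or Tyrobp or, as a single-tyrosine form, by the receptor itself. Phosphorylated ITAMs recruit the kinase Syk, and Card9 relays the signal to NF-kB and cytokine genes. Inhibitory members carry an ITIM motif instead and recruit phosphatases such as Ptpn6 (SHP-1).

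The 9 genes described here were chosen by name from the mouse C-type lectins of myeloid cells and are 9 of the 52636 genes listed for each liver. They and the gene lists below were chosen with earlier results of these data known. Counts of called genes beside the share of all genes are therefore descriptions. All 9 passed the low-count filter, as did 17243 genes in all. Clec4e (Mincle) binds the nuclear protein SAP130 (encoded by Sf3b3) from dead cells as well as microbial glycolipids, and Clec4d (MCL) pairs with it. Clec4n (Dectin-2) and Clec7a (Dectin-1) bind fungal sugars, Clec5a (MDL-1) signals through Tyrobp, and Clec12a is an ITIM receptor that binds uric acid crystals. Clec4a2 (DCIR) is an ITIM receptor too, and Clec4a1 and Clec4a3 are its relatives.

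RNA from fetal livers of untreated E15.5 embryos was sequenced: 3 WT, 2 Tnfr1-/-, 3 Casp8-/- Mlkl-/- and 3 Casp8-/- Tnfr1-/-, on a C57BL/6N background. Tnfr1 encodes a TNF receptor (gene symbol Tnfrsf1a), Casp8 encodes caspase-8, which restrains necroptosis, and Mlkl encodes the protein that executes it. The alleles were carried in the germline, so every cell of the embryo lacked the gene, and Casp8-/- Mlkl-/- embryos lacked Casp8 but could not complete necroptosis. The comparisons ask how the receptors differed where Casp8 and Tnfr1 were both lost, against the livers with neither, with Tnfr1 loss alone, or with Casp8 loss and Mlkl loss together. The 3 comparisons of Casp8-/- Tnfr1-/- livers use the same 3 Casp8-/- Tnfr1-/- livers and are not independent.

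Each liver had 23129212 to 35819339 counted reads. Pearson correlations of log2 CPM (the reads of a gene scaled to the total of its library) reached at least 0.988 for each of 9 livers with its closest other liver, 0.962 for Casp8-/- Mlkl-/- replicate 1 and 0.891 for Casp8-/- Tnfr1-/- replicate 3. The last was also the single liver with Xist (3409 CPM, against at most 0.57 CPM elsewhere). Its Y-linked Ddx3y and Eif2s3y were at 0.057 and 0 CPM, against 66.6 to 114 and 33.5 to 63.1 CPM elsewhere. By these genes it was the single female liver, so sex cannot be told apart from its other differences. It held striated muscle transcripts at 1604 CPM, summed over 10 genes, against 14.1 to 33.7 CPM elsewhere. Its 10 hemoglobin genes summed to 171803 CPM, against 34659 to 61046 CPM elsewhere. Casp8-/- Mlkl-/- replicate 1 had the highest summed macrophage and hepatocyte markers (1791 CPM over 14 genes and 236653 CPM over 10 genes). Counts of called receptors are given with and without Casp8-/- Tnfr1-/- replicate 3. Casp8 was at 27.7 to 33.9 CPM in the 5 Casp8-intact livers, 7.82 to 13.1 CPM in 5 Casp8-null livers and 21.9 CPM in Casp8-/- Tnfr1-/- replicate 3, and Mlkl was at 0.73 to 1.22 CPM in Casp8-/- Mlkl-/- livers against 3.68 to 24.6 CPM elsewhere. Tnfrsf1a was at 49.8 and 50.5 CPM in the Tnfr1-/- livers, within 47.1 to 53.4 CPM in WT, and at 76.9, 76.0 and 425 CPM in the Casp8-/- Tnfr1-/- livers, with replicate 3 far above the rest. Its gene total is therefore no check of the Tnfr1-/- label, and reads over the deleted part were not analysed here.

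The 9 genes lay on mouse chromosome 6 (GRCm38). The 6 Clec4 genes fell within chr6:122921848-123289870, a span of 368.0 kb that holds 9 protein-coding genes. In order these members were Clec4a1 (ENSMUSG00000049037, 122921848 to 122934619), Clec4a3 (ENSMUSG00000043832, 122952515 to 122969875), Clec4a2 (ENSMUSG00000030148, 123106428 to 123143999), Clec4n (ENSMUSG00000023349, 123229843 to 123247021), Clec4d (ENSMUSG00000030144, 123262111 to 123275265) and, on the minus strand, Clec4e (ENSMUSG00000030142, 123281789 to 123289870). The neighbours Clec4a4, Clec4b1 and Clec4b2, in the same span, stayed at or below 0.486 CPM in every liver. Clec12a (ENSMUSG00000053063, 129342691 to 129365303) and Clec7a (ENSMUSG00000079293, 129461591 to 129472779, minus strand) lay in a second group, and Clec5a (ENSMUSG00000029915, 40574894 to 40585821, minus strand) lay apart. Of the 50-base words of Clec4a2 transcripts, 6.83% also occurred in another gene, mainly Clec4a4 and Clec4b1. For the other 8 members this share was at most 0.686%.

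Promoters are shown for the pair with the highest fold changes (Clec4d and Clec4e), for Clec5a, which was called against all 3 other genotypes, and for Clec12a, which was not called, so that their letters can be compared beside the values below. Each runs from 250 bases before to 50 after a RefSeq start (GRCm38.p6), on the gene's strand, and capitals mark the PU.1 core GAGGAA, the C/EBP motif TTNNGCAAT, the AP-1 motif TGANTCA and the core of the interferon-stimulated response element (ISRE), on either strand. NF-kB motifs were searched too. The regions are chr6:123261857-123262156 (Clec4d, plus strand), chr6:123289822-123290121 (Clec4e, minus strand), chr6:40585756-40586055 (Clec5a, minus strand) and chr6:129349994-129350293 (Clec12a, plus strand).
Clec4d: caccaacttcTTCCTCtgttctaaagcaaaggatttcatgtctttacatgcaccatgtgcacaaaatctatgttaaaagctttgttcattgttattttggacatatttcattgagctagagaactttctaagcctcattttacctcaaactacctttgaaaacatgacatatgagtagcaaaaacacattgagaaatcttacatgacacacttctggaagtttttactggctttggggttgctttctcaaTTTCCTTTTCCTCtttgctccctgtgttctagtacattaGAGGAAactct
Clec4e: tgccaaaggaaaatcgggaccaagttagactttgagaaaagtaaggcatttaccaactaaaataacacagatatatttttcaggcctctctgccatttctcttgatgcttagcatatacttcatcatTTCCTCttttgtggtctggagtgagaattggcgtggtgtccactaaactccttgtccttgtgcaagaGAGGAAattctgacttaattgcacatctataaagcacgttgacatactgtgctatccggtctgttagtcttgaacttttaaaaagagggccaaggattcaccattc
Clec5a: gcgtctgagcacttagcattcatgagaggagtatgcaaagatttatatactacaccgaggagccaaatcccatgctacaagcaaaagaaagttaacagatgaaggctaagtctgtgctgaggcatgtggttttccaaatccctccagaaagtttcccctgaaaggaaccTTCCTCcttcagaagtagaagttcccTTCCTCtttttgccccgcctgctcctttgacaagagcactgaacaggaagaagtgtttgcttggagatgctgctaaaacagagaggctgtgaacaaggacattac
Clec12a: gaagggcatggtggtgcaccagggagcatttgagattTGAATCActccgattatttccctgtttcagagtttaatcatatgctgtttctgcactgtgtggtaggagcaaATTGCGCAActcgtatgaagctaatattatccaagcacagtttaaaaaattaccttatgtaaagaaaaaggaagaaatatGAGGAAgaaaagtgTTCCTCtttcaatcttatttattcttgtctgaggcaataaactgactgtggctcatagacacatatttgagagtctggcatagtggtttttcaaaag

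A PU.1 core lay in the promoters of 7 of the 8 members that had one in the RefSeq table, against 28.3% of all 32851 promoters. The first count is by member, with a match in any of its promoters, and the second by single promoter. The 8 members had 10 promoters, and that of Clec4a3 at chr6:122952265-122952564 held no PU.1 core. Clec4a2 held none. In Clec4e the matches began 123 and 56 bases before the start, and in Clec5a 81 and 55 bases before it. Clec4d had an ISRE core at its start (3.44% of all promoters hold one), which overlapped a PU.1 core. A C/EBP motif, in 2.18% of all promoters, was found for Clec12a, and AP-1, in 7.81%, for Clec12a and Clec4a2. No member promoter held the NF-kB motif, which 8.46% of all promoters hold. These are matches of letters in short windows and say nothing of binding.

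Against WT, 5 of the 9 receptors were called higher in Casp8-/- Tnfr1-/- livers (Clec4d, Clec4e, Clec5a, Clec4a2 and Clec7a) and none lower, where 5.1% of all genes tested were called higher (called means an adjusted p under 0.05 in the quasi-likelihood test of edgeR). The median log2 fold change of the 9 was 1.16, against -0.0015 over all genes. Against Tnfr1-/-, Clec5a alone was called (background 2.05%), and against Casp8-/- Mlkl-/-, Clec4d and Clec5a were called (background 1.54%). Against the 8 other livers together the same 5 receptors were called as against WT, beside 8.79% of all genes. With any single WT liver left out, Clec5a alone was called against WT, and with either Tnfr1-/- liver left out 3 receptors were. Against Tnfr1-/- none was called without either Tnfr1-/- liver, and against Casp8-/- Mlkl-/- none without either Tnfr1-/- liver or without Casp8-/- Mlkl-/- replicate 2 or 3. The labels do not say whether livers came from separate litters, so p-values measure the spread between these samples. In bulk RNA, more cells of a type and more RNA per cell cannot be told apart.

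**Figure D1:**
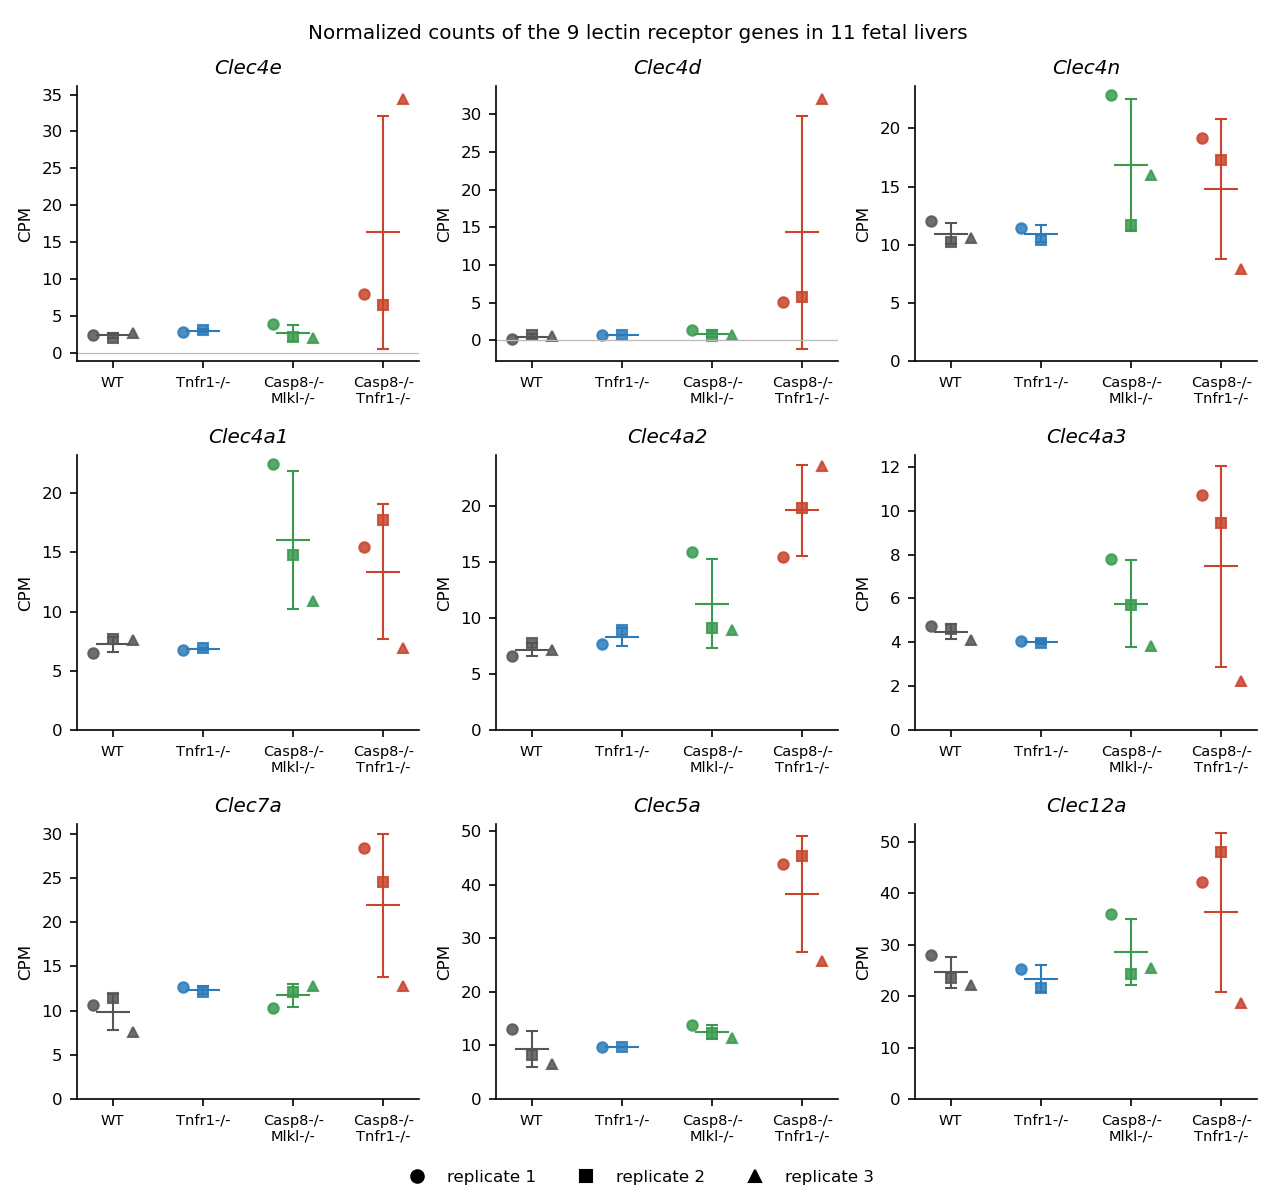
CPM (y axis) of each of the 9 receptors in each liver by genotype (x axis), with the symbol giving the replicate and the bars the mean and SD. In Clec4e, Clec4d, Clec7a and Clec5a all 3 Casp8-/- Tnfr1-/- livers sit above the 8 others, while in Clec4n, Clec4a3 and Clec12a replicate 3 (triangle) sits below them.

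Clec5a, the Tyrobp-coupled receptor, was at 13.02, 8.30 and 6.55 CPM in WT, 9.76 CPM in both Tnfr1-/- livers and 13.9, 12.3 and 11.4 CPM in Casp8-/- Mlkl-/- livers. In Casp8-/- Tnfr1-/- livers it was at 43.8, 45.3 and 25.8 CPM. All 3 of these lay well above the 8 others. Its log2 fold change was 2.04 ± 0.29 (SE) against WT (adjusted p = 0.0038), 1.97 ± 0.33 against Tnfr1-/- (adjusted p = 0.0165) and 1.61 ± 0.28 against Casp8-/- Mlkl-/- (adjusted p = 0.0237). It was the single member called in all 3, and against WT it was called under each of 22 alternatives (highest adjusted p = 0.0356).

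Clec4d, the partner of Mincle, was nearly absent outside this genotype. It was at 0.192, 0.713 and 0.631 CPM in WT (5, 17 and 16 counts), 0.766 and 0.76 CPM in Tnfr1-/- livers and 1.42, 0.581 and 0.764 CPM in Casp8-/- Mlkl-/- livers. Casp8-/- Tnfr1-/- livers had 5.09, 5.78 and 32.1 CPM (167, 168 and 563 counts). The groups did not overlap, and replicate 3 was far above replicates 1 and 2. The log2 fold change was 4.79 ± 0.84 against WT (27.7-fold, adjusted p = 0.0103), 4.22 ± 0.95 against Tnfr1-/- (adjusted p = 0.0546) and 3.96 ± 0.79 against Casp8-/- Mlkl-/- (adjusted p = 0.0415). Without replicate 3 it was 3.41 ± 0.47 against WT (adjusted p = 0.00248), 2.83 ± 0.52 against Tnfr1-/- (adjusted p = 0.015) and 2.58 ± 0.44 against Casp8-/- Mlkl-/- (adjusted p = 0.0154), so that Clec4d was then called in all 3.

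Clec4e (Mincle) was at 2.42, 1.93 and 2.64 CPM in WT, 2.79 and 3.11 CPM in Tnfr1-/- livers and 3.89, 2.12 and 2.03 CPM in Casp8-/- Mlkl-/- livers. It was at 7.99, 6.44 and 34.5 CPM in Casp8-/- Tnfr1-/- livers, again without overlap and with replicate 3 far above the others. The log2 fold change was 2.80 ± 0.61 against WT (adjusted p = 0.0275), 2.46 ± 0.70 against Tnfr1-/- (adjusted p = 0.119) and 2.60 ± 0.60 against Casp8-/- Mlkl-/- (adjusted p = 0.0708). Without replicate 3 these were 1.64 ± 0.29, 1.29 ± 0.32 and 1.44 ± 0.29, with adjusted p = 0.00796, 0.0528 and 0.0311, so that Clec4e was also called against Casp8-/- Mlkl-/- once that liver was left out. Clec4e and Clec4d had a Pearson r of 0.947 over the 11 livers, which span the genotypes and include replicate 3, the highest for both. Clec4d lies next to both Clec4e and Clec4n, and its r was -0.00886 with Clec4n. With Clec4a2, farther away in the same span, its r was 0.923.

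Clec7a (Dectin-1), which carries its own ITAM-like tyrosine, was at 10.6, 11.4 and 7.53 CPM in WT, 12.6 and 12.0 CPM in Tnfr1-/- and 10.3, 12.1 and 12.7 CPM in Casp8-/- Mlkl-/- livers. The Casp8-/- Tnfr1-/- livers had 28.3, 24.5 and 12.8 CPM. Replicates 1 and 2 were well above the rest, whereas replicate 3 barely exceeded the highest of the 8. The log2 fold change was 1.16 ± 0.28 against WT (adjusted p = 0.0418), 0.83 ± 0.32 against Tnfr1-/- (adjusted p = 0.236) and 0.90 ± 0.28 against Casp8-/- Mlkl-/- (adjusted p = 0.168). Without replicate 3 it was 1.43 ± 0.18 (adjusted p = 0.00143), 1.10 ± 0.20 (adjusted p = 0.0149) and 1.18 ± 0.18 (adjusted p = 0.00804), and Clec7a was then called in all 3.

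Of the ITIM receptors, Clec4a2 was at 6.64, 7.75 and 7.14 CPM in WT, 7.71 and 8.89 CPM in Tnfr1-/-, 15.9, 9.09 and 8.90 CPM in Casp8-/- Mlkl-/- and 15.4, 19.8 and 23.6 CPM in Casp8-/- Tnfr1-/- livers. It rose against WT (1.45 ± 0.26, adjusted p = 0.0112). Against Casp8-/- Mlkl-/-, where replicate 1 overlapped it, the value was 0.80 ± 0.25 (adjusted p = 0.178). Clec12a, the member with the most reads in WT livers, was at 28.0, 23.6 and 22.2 CPM in WT, 25.2 and 21.6 CPM in Tnfr1-/- and 35.9, 24.2 and 25.5 CPM in Casp8-/- Mlkl-/- livers. Casp8-/- Tnfr1-/- replicates 1 and 2 were the highest of all livers (42.1 and 48.0 CPM) and replicate 3 the lowest (18.6 CPM). Its log2 fold change against WT was 0.56 ± 0.31 (adjusted p = 0.283).

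The other 3 Clec4 genes were not called in any comparison with all 11 livers. Clec4n (Dectin-2), which signals through Fcer1g, was at 10.3 to 12.0 CPM in WT, 10.4 to 11.5 CPM in Tnfr1-/-, 11.7 to 22.9 CPM in Casp8-/- Mlkl-/- and 19.2, 17.3 and 7.92 CPM in Casp8-/- Tnfr1-/- livers. Clec4a1 was at 6.53 to 7.67, 6.76 to 6.91 and 10.9 to 22.4 CPM in the same 3 genotypes, then at 15.4, 17.8 and 6.95 CPM. Clec4a3 was at 4.10 to 4.76, 3.95 to 4.08 and 3.82 to 7.78 CPM, then at 10.7, 9.43 and 2.22 CPM. In each of these genes Casp8-/- Tnfr1-/- replicates 1 and 2 lay above all WT and Tnfr1-/- livers, and replicate 3 lay within or below them. Their log2 fold changes against WT were 0.44 ± 0.33 for Clec4n, 0.89 ± 0.35 for Clec4a1 and 0.74 ± 0.48 for Clec4a3 (adjusted p = 0.42, 0.157 and 0.353).

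**Figure D2:**
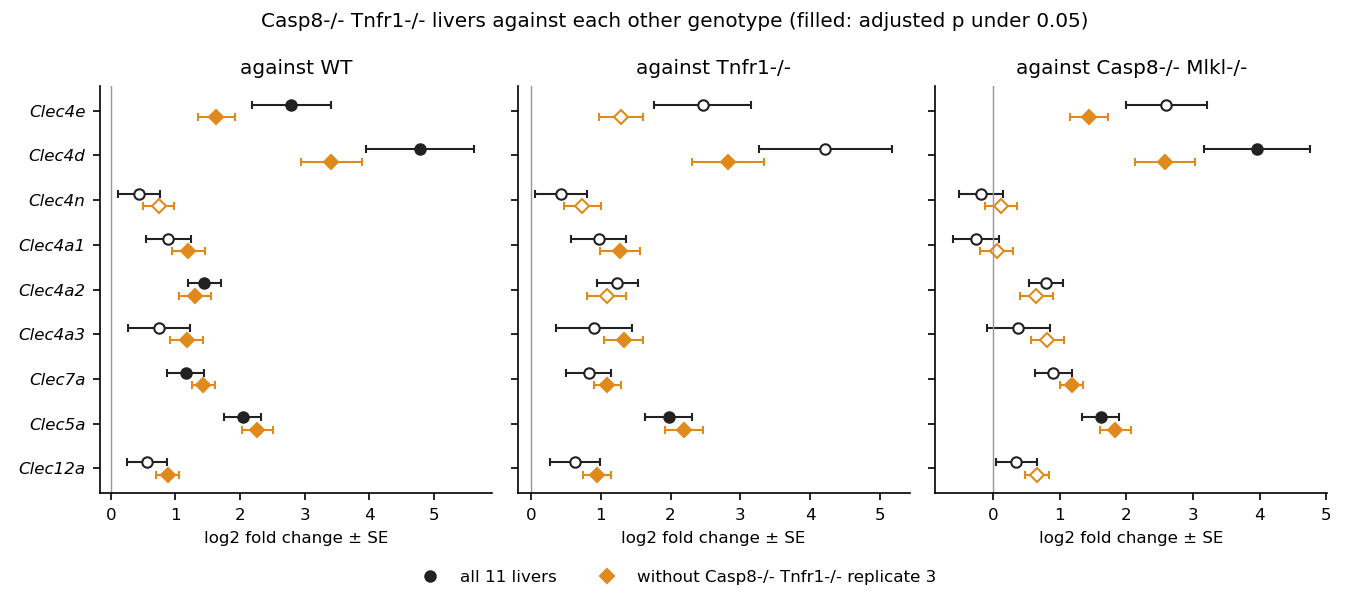
Log2 fold change ± SE (x axis) of each receptor (y axis) in Casp8-/- Tnfr1-/- livers against WT, Tnfr1-/- and Casp8-/- Mlkl-/- livers, with all 11 livers (circles) and without Casp8-/- Tnfr1-/- replicate 3 (diamonds). Filled symbols are called. Without that liver Clec4e and Clec4d move toward 0 and 8 of the 9 are called against WT.

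Casp8-/- Tnfr1-/- replicate 3 thus split the family. Relative to the median of the 8 other livers, on the log2 CPM scale, its members ran from -0.95 (Clec4a3) to 5.31 (Clec4d), a spread of 6.26. Replicates 1 and 2 had all 9 members above that median, from 0.73 to 2.68 and from 0.58 to 2.86. Without replicate 3, 8 of 9 receptors were called higher against WT (background 7.28%), all but Clec4n (0.74 ± 0.24, adjusted p = 0.0865). The counts were 6 against Tnfr1-/- (background 4.46%), 4 against Casp8-/- Mlkl-/- (background 2.83%) and 8 against the 8 others (background 7.23%). In this liver Mpo, a primary granule gene of immature neutrophils, was at 53.4 CPM against 672 and 819 CPM in replicates 1 and 2. S100a9, abundant in mature neutrophils, was at 6468 CPM against 1576 and 1879.7 CPM. Their part in the split was not tested.

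**Figure D3:**
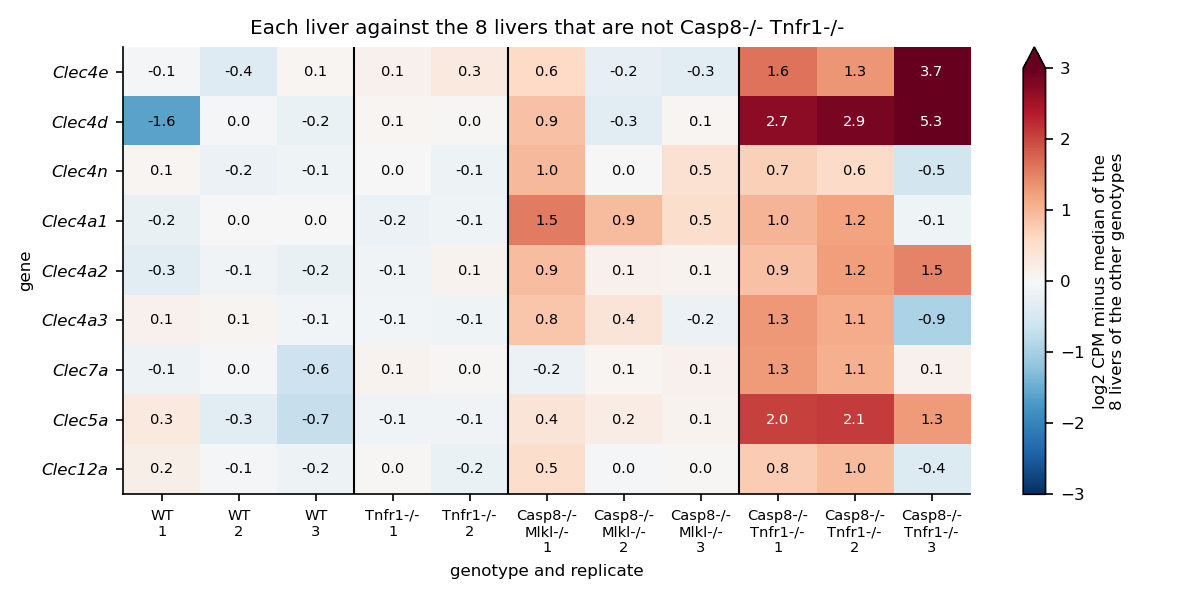
Log2 CPM of each receptor (rows) in each liver (columns) minus the median of the 8 livers that are not Casp8-/- Tnfr1-/-, with the colour scale saturating at 3. Casp8-/- Tnfr1-/- replicates 1 and 2 are above 0 in all 9 genes, and replicate 3 ranges from -0.95 to 5.31.

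In 4 receptors (Clec4e, Clec4d, Clec7a and Clec5a) all 3 Casp8-/- Tnfr1-/- livers lay above the 8 others, as in 7.43% of all genes, and in none did all 3 lie below. For replicates 1 and 2 alone the count was 6, with Clec4a3 and Clec12a added, beside 10.7% of all genes. A test of any difference among the 4 genotypes called Clec5a, Clec4d, Clec4a2 and Clec4e (adjusted p = 0.00577, 0.0109, 0.0336 and 0.0388), beside 3.6% of all genes.

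Among the other 3 genotypes no receptor was called, and of all genes 0.0058% were called higher in Casp8-/- Mlkl-/- livers against WT, 0.0058% against Tnfr1-/-, and 0.0% in Tnfr1-/- livers against WT. In Tnfr1-/- livers the 9 log2 fold changes against WT lay between -0.16 (Clec4a3) and 0.58 ± 0.88 (Clec4d). In Casp8-/- Mlkl-/- livers they lay between 0.20 (Clec4e) and 1.14 ± 0.35 (Clec4a1), all above 0. Clec4a1 was higher in all 3 of these livers than in any WT or Tnfr1-/- liver (unadjusted p = 0.00849, adjusted p = 0.865 against WT), and Clec4a2 was too, by a narrow margin. Of all genes, 5.61% had all 3 Casp8-/- Mlkl-/- livers above those 5 livers. With Casp8-/- Tnfr1-/- replicate 3 and Casp8-/- Mlkl-/- replicate 1 both left out, it was 0.83 ± 0.14 (adjusted p = 0.00547, background 3.23%). Under that choice, made after the data were seen, all 9 receptors were called in Casp8-/- Tnfr1-/- livers against WT, beside 17.8% of all genes. Clec4a1 and Clec4n were the members for which the Casp8-/- Tnfr1-/- mean did not exceed the Casp8-/- Mlkl-/- mean (log2 fold changes of -0.26 ± 0.34 and -0.18 ± 0.33). Both signs turned when either liver was left out.

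Levels between genes were compared as CPM per kb of the deposited gene width. In WT livers Clec12a (9.83) and Clec4n (8.83) were highest, followed by Clec4a1 (4.66), Clec7a (4.30), Clec4a3 (3.39), Clec4a2 (2.74) and Clec5a (2.43), with Clec4e (0.925) and Clec4d (0.387) lowest. This order depends on the width used. The deposited width of Clec12a is 2502 bases and the union of its GENCODE exons 5528 bases, and for Clec4e these are 2518 and 4965 bases. Per kb of the exon union, a choice made after the data were seen, Clec4n (7.72) was highest in WT livers, followed by Clec4a1 (4.66) and Clec12a (4.45), and Clec4e (0.469) and Clec4d (0.320) were again lowest. The shares below use the deposited width, and with the exon union each share difference kept its sign and its side of the threshold. In Casp8-/- Tnfr1-/- livers the means ran from 14.5 for Clec12a to 5.62 for Clec4a3, and Clec4d (10.8) and Clec5a (10.02) had means next to that of Clec7a (9.57), differing by less than their spread over livers. As a share of the summed per-length level of the 9 genes, Clec5a rose from 6.39% ± 1.11 (SD, n = 8) in the other livers to 11.7% ± 2.76 (SD, n = 3), and Clec4d from 1.24% ± 0.403 to 13.3% ± 15.0 (exact two-sided permutation p = 0.00606 for each, the smallest that 3 against 8 livers allows). The Clec4n share fell from 23.9% ± 2.40 to 13.8% ± 5.11 (exact permutation p = 0.00606). Shares are parts of one sum, so a share can fall where other members rise. The mean level of Clec4n did not fall (14.8 CPM against 13.2 CPM in the 8 others). In replicates 1 and 2 Clec4d took 4.42% and 4.93%, and in replicate 3 it took 30.6%. Clec4e took 3.65%, 2.88% and 17.3% there (exact permutation p = 0.0182 with all 3 livers, 0.0667 without replicate 1 and 0.111 without replicate 3). Clec12a fell from 23.8% ± 2.56 to 16.8% ± 6.51 (exact permutation p = 0.0182, 0.0667 without replicate 1 and 0.133 without replicate 3). For Clec4a1, Clec4a2, Clec4a3 and Clec7a the exact permutation p was 0.115 to 0.873.

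**Figure D4:**
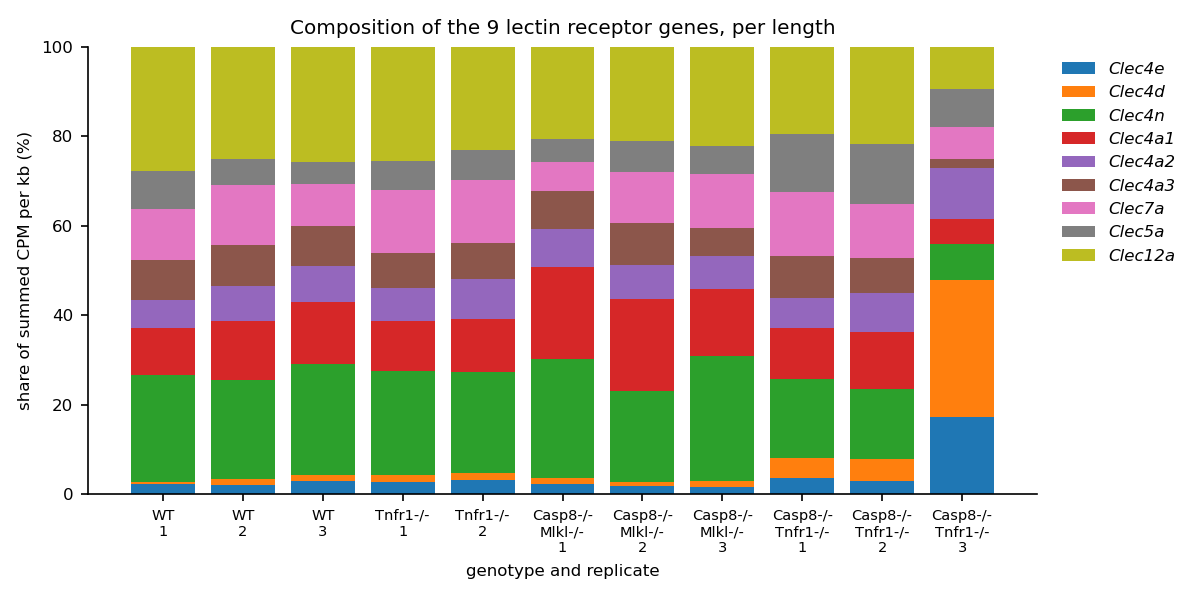
Share (%) of each receptor in the summed CPM per kb of the 9 genes (y axis) in each liver (x axis). Clec5a and Clec4d widen in all 3 Casp8-/- Tnfr1-/- livers, and in replicate 3 Clec4d and Clec4e take 30.6% and 17.3%.

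Marker lists of the cells that carry these receptors moved with the genotype in different directions. The 14 macrophage markers summed to 574 to 718 CPM in WT, 661 to 694 CPM in Tnfr1-/-, 760 to 1791 CPM in Casp8-/- Mlkl-/- and 414 to 582 CPM in Casp8-/- Tnfr1-/- livers. The most abundant, Cd5l, was at 13.6 to 75.3 CPM in the last, against 91.2 to 318 CPM in the other 8, and Vsig4 was at most 0.0688 CPM there. Vsig4 was at 0.922 to 2.58 CPM in WT and Tnfr1-/- livers. In Casp8-/- Mlkl-/- livers it ranged from 0.0291 to 4.46 CPM, so a low value was not confined to Casp8-/- Tnfr1-/- livers. The 10 monocyte markers, led by Hp, summed to 1404 to 2741 CPM in Casp8-/- Tnfr1-/- livers against 182 to 344 CPM in 7 of the others and 1398 CPM in Casp8-/- Mlkl-/- replicate 1. The 14 neutrophil markers, led by S100a9, summed to 5472 to 15611 CPM against 1174 to 3564 CPM. Of these, 9 were called higher against the 8 others, beside 8.79% of all genes. Mpo, Elane, Prtn3, Ctsg and Ly6g were not (adjusted p = 0.204 to 0.789). For Mpo, Elane, Prtn3 and Ctsg the lowest Casp8-/- Tnfr1-/- liver lay below all 8 others and the highest above them. The 7 dendritic cell markers summed to 29.8 to 42.8 CPM against 35.1 to 55.2 CPM, sums made up mostly of Zbtb46 (21.7 to 34.6 CPM against 24.2 to 47.2 CPM). Within that list Itgax, which other myeloid cells carry too, was at 2.35 to 3.53 CPM against 0.610 to 2.23 CPM (log2 fold change of 1.30 against the 8 others, adjusted p = 0.0404). Hp is also made by hepatocytes, whose 10 markers were at 58610 to 112358 CPM in Casp8-/- Tnfr1-/- livers and 61315 to 75221 CPM in WT. That sum was 236653 CPM in Casp8-/- Mlkl-/- replicate 1, where Hp was at 1119 CPM. Alb led the list, and none of its genes was called against the 8 others. Within it Fgb was at 2393 to 7631 CPM in Casp8-/- Tnfr1-/- livers and 821 to 1354 CPM in WT and Tnfr1-/- livers. In Casp8-/- Mlkl-/- livers Fgb was at 811 to 6749 CPM. The part of hepatocytes in the Hp level was not tested.

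Relative to the macrophage sum, each of the 9 receptors had a higher mean log2 ratio in Casp8-/- Tnfr1-/- livers than in the 8 others. That sum was itself lower there, at 414 to 582 CPM against 574 to 1791 CPM. A ratio to a list moves with the list as well as with the receptor. Its p-value is therefore no test of the receptor alone, here and for the lists below. Clec4e made up 1.37%, 1.18% and 8.34% of that sum, against 0.217% to 0.472%. Clec5a made up 7.52%, 8.29% and 6.23%, against 0.776% to 1.81%, and Clec12a 7.23%, 8.78% and 4.51%, against 2.01% to 3.89%. The differences in mean log2 ratio ran from 0.74 (Clec4n, exact two-sided permutation p = 0.0121) to 4.54 (Clec4d, exact p = 0.00606), with raw p = 0.0424 or below in the 9 exact tests. For Clec4a3, where replicate 3 (0.537%) fell within the others (0.435% to 0.749%), the exact p was 0.178 without replicate 1, 0.156 without replicate 2 and 0.0583 without Casp8-/- Mlkl-/- replicate 1.

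Relative to the neutrophil sum, which was higher in Casp8-/- Tnfr1-/- livers, the order turned. Clec4d was still higher (1.53, exact permutation p = 0.00606). Clec4e (-0.14, exact p = 0.63) and Clec5a (-0.54, exact p = 0.267) did not pass the test. Clec4n (-2.27), Clec4a3 (-2.02), Clec4a1 (-2.00), Clec12a (-1.99), Clec4a2 (-1.23) and Clec7a (-1.48) were lower, with exact p = 0.00606, or 0.0303 for Clec7a. Clec12a thus had the same exact p as higher over the macrophage sum and as lower over the neutrophil sum. Its own level was not called against the 8 others (log2 fold change of 0.50, adjusted p = 0.236 in edgeR). By liver, Clec7a made up 0.518%, 0.362% and 0.0821% of the neutrophil sum, against 0.289% to 0.886%. Without Casp8-/- Tnfr1-/- replicate 3 the exact p was 0.178 for Clec4d (1.13) and 0.111 for Clec7a (-0.68), the Clec5a value turned to 0.17 (exact p = 0.511), and the other 5 lower members stayed lower (exact p = 0.0222, the smallest that 2 against 8 livers allows). The Clec4e value turned to 0.17 without replicate 2 (exact p = 0.578).

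The 10 monocyte markers with Hp gave the same signs as the neutrophil list with all 11 livers. Without Hp, a choice made after the data were seen, the other 9 summed to 436 to 694 CPM in Casp8-/- Tnfr1-/- livers against 120 to 279 CPM, and the signs of Clec4e (0.74, exact p = 0.0667) and Clec5a (0.34, exact p = 0.273) turned. Clec4d was higher relative to that sum (2.41, exact p = 0.00606), and Clec4n (-1.39), Clec12a (-1.11) and Clec4a3 (-1.14) were lower (exact p = 0.00606, 0.00606 and 0.0485). For Clec4a3 the exact p was 0.111 without Casp8-/- Tnfr1-/- replicate 2, 0.378 without replicate 3 and 0.0667 without Casp8-/- Mlkl-/- replicate 1. The Hp-free values of Clec4a1, Clec4a2 and Clec7a were -1.12, -0.35 and -0.60 (exact p = 0.0606, 0.0848 and 0.0909). Within these bulk samples the part of each cell type in the receptor levels was not tested.

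**Figure D5:**
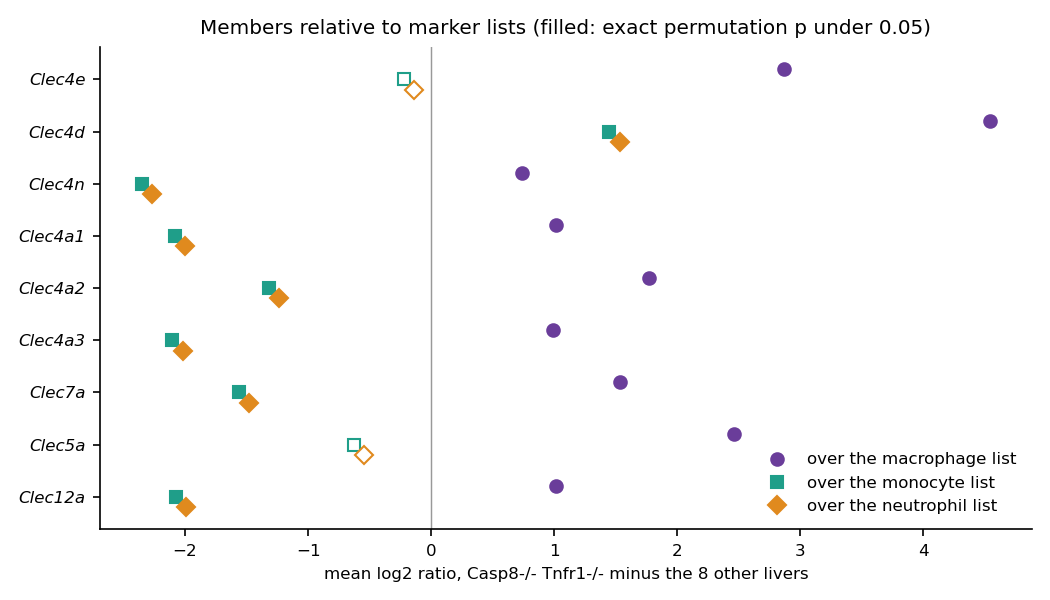
Mean log2 ratio of each receptor (y axis) to the summed CPM of the macrophage, monocyte or neutrophil marker list, Casp8-/- Tnfr1-/- livers minus the 8 others (x axis). Filled symbols have an exact permutation p under 0.05. All 9 lie above 0 over the macrophage list, and Clec4d alone does over the neutrophil list and the monocyte list with Hp. The list sums themselves also differ between these livers.

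Of 19 signalling genes downstream of the receptors, 12 were called higher in Casp8-/- Tnfr1-/- livers against WT and none lower, beside 5.1% of all genes, with a median log2 fold change of 0.99. Without Casp8-/- Tnfr1-/- replicate 3 the count was 13, beside 7.28% of all genes. With all 11 livers 6 were called higher against Tnfr1-/- (background 2.05%) and 4 against Casp8-/- Mlkl-/- livers (background 1.54%). The adaptor Fcer1g, used by Clec4e, Clec4d and Clec4n, was at 66.9, 73.7 and 143 CPM against 32.4 to 38.8 CPM in 7 livers and 64.2 CPM in Casp8-/- Mlkl-/- replicate 1 (1.40, adjusted p = 0.0348 against WT). Tyrobp, used by Clec5a, was at 62.6, 72.1 and 121 CPM against 33.3 to 67.7 CPM (1.26, adjusted p = 0.0413), and it was not called without replicate 3 (0.93, adjusted p = 0.0536). With all 11 livers neither adaptor was called against Tnfr1-/- (adjusted p = 0.0735 and 0.123) or Casp8-/- Mlkl-/- livers (adjusted p = 0.145 and 0.206). These adaptors serve many other receptors of myeloid cells.

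Card9 was at 17.8, 21.9 and 26.8 CPM against 6.04 to 9.45 CPM in all 8 others, without overlap (1.71 against WT, adjusted p = 0.00104), and it was also called against Tnfr1-/- and Casp8-/- Mlkl-/- livers. The kinase Syk rose against WT (0.87, adjusted p = 0.0157) and the inhibitory phosphatase Ptpn6 did too (1.12, adjusted p = 0.0126). Neither was called against Tnfr1-/- (adjusted p = 0.145 and 0.0719) or Casp8-/- Mlkl-/- livers (adjusted p = 0.482 and 0.21). Syk was at 69.4 to 89.1 CPM in Casp8-/- Mlkl-/- livers, which overlapped 76.9 to 112 CPM in Casp8-/- Tnfr1-/- livers. The Src family kinase Fgr (3.12, adjusted p = 0.00236), the phospholipase Plcg2 (1.21, adjusted p = 0.00218) and Prkcd (0.98, adjusted p = 0.00158), the kinase that acts on Card9, were also higher against WT. Plcg2 and Prkcd were called against Tnfr1-/- and Casp8-/- Mlkl-/- livers too. Fgr was called against Tnfr1-/- (adjusted p = 0.0174) but not against Casp8-/- Mlkl-/- livers (1.43, adjusted p = 0.106).

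Cytokine and early genes that these receptors, among many others, can induce were also higher. Of 15 listed, 11 were tested, and 9 of these were called against WT, beside 5.1% of all genes. Without replicate 3 the count was also 9, beside 7.28%. Over all 11 livers 6 were called against Tnfr1-/- (background 2.05%) and 5 against Casp8-/- Mlkl-/- livers (background 1.54%). Ccl4 was at 10.1, 11.5 and 4.79 CPM against 0.0768 to 0.535 CPM in the 8 others, and Cxcl1 at 32.0 and 33.3 CPM in replicates 1 and 2, and lower but still above all 8 others in replicate 3, against 0.841 to 2.30 CPM. Ccl3, Egr2 and Cxcl2 were likewise above all 8 others, with Cxcl2 at 2.35, 1.93 and 34.3 CPM against at most 0.0811 CPM. Cxcl2 and Egr2 were highest in replicate 3, as were Clec4e and Clec4d, and Ccl4 and Cxcl1 lowest there. Csf2 had 0 counts in every liver, so its level was not detectable at this depth.

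Of the genes behind known ligands, Xdh, whose product makes uric acid, was at 40.2, 43.5 and 113 CPM against 4.69 to 21.2 CPM (3.30 against WT, adjusted p = 0.013, and 2.66 without replicate 3, adjusted p = 0.0135). Sf3b3, which encodes the Clec4e ligand SAP130, was at 323 and 333 CPM in replicates 1 and 2, within 310 to 365 CPM in 7 of the other livers, and at 159 CPM in replicate 3 and 238 CPM in Casp8-/- Mlkl-/- replicate 1 (-0.33, adjusted p = 0.435). Over all 11 livers Xdh was not called against Tnfr1-/- or Casp8-/- Mlkl-/- livers (adjusted p = 0.0833 and 0.0654). RNA levels do not show how much ligand was released.

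Of 33 other C-type lectins listed, 24 were tested, and 4 were called higher against WT (Clec1a, Olr1, Cd69 and Cd93), beside 5.1% of all genes, and 2 lower (Clec4f and Cd209f), beside 0.702%, with a median log2 fold change of 0.85. Without replicate 3 these counts were 5 (Ly75 added) and 0. Over all 11 livers Olr1 alone was called higher against Tnfr1-/- (background 2.05%). None was called against Casp8-/- Mlkl-/- livers (background 1.54%). Olr1, a receptor of oxidized lipoproteins, was at 11.9, 13.05 and 8.72 CPM against 4.11 to 7.45 CPM (1.30, adjusted p = 0.00621). The C-type lectin of Kupffer cells, Clec4f, went the other way, named here after its values were seen. It was at 10.5 to 13.9 CPM in WT and Tnfr1-/- livers and at 1.16, 0.551 and 0.114 CPM in Casp8-/- Tnfr1-/- livers (-4.23, adjusted p = 0.0436, and -3.80 without replicate 3, adjusted p = 0.0537). Clec4f was at 5.47, 0.203 and 0.726 CPM in Casp8-/- Mlkl-/- livers too, where it was not called against WT.

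Over the 11 livers, the genes whose log2 CPM correlated best with a receptor, of 14341 with a mean of at least 1 CPM, were Prok2 (r = 0.99), Trafd1 (0.987) and Cd244a (0.987) for Clec4e. For Clec7a they were Galnt3 (0.965), Nin (0.932) and Ctsc (0.929), and for Clec12a Agtrap (0.976), Fcnb (0.973) and Limd2 (0.963). Prok2 was at 0.763 and 0.62 CPM in Casp8-/- Tnfr1-/- replicates 1 and 2, 40.5 CPM in replicate 3 and at most 0.162 CPM elsewhere. Fcnb, a ficolin of myeloid granules, was at 67.8, 86.5 and 22.9 CPM against 24.1 to 49.8 CPM, with replicate 3 lowest, as for Clec12a. These correlations are descriptions over livers that share genotypes, and none was tested.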

How the data were processed

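RNA-seq libraries of 11 fetal livers were read from tables of counts (uniquely mapped exonic reads per gene) deposited by the authors, beside a gene width and RPKM, which were not used for tests. The authors aligned reads with GSNAP to GRCm38. The labels and the study's methods name different library kits and sequencers, and the use of strand in counting is not given in the sources used here. Totals were 23129212 to 35819339 counts per liver. Symbols came from GENCODE mouse release M21. Counts were fitted with edgeR 4.0.16 (TMM, filterByExpr with a minimum count of 10, quasi-likelihood, R 4.3.3) over all 11 livers with genotype as the single term, Benjamini-Hochberg over 17243 genes, threshold 0.05. SE is the log2 fold change over the root of F. Log2 CPM values used a prior count of 2. Ratios and shares were compared with exact two-sided permutation tests. The edgeR fit was tested on simulated counts, without an outlying liver and without changed genes of low count. The ratio and share tests were not simulated. Alternatives used DESeq2 1.42.0, limma 3.58.1, other filters and scalings, a replicate block and leaving out livers, with more marker lists, gene lengths and left-out livers chosen after the data were seen. The 9 members and all gene lists were chosen with earlier results of these data known. Named genes were the members, Fcer1g, Tyrobp, Syk, Card9, Ptpn6, up to 5 genes per list with the smallest p against the 8 other livers, the 3 genes most correlated with Clec4e, Clec7a and Clec12a, the targeted genes and the most abundant marker per cell type. Others named were chosen after their values were seen. These were Clec4f, Xist, Ddx3y, Eif2s3y, Mpo, Elane, Prtn3, Ctsg, Ly6g, Vsig4, Itgax, Fgb, Csf2 and genes given only as called. One gene that the rule names is not reported here.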

Additional observations from a re-analysis of the deposited data

How the results depend on the processing

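Against WT, 5 receptors were called, 3 with limma-voom, 2 with only the genotypes compared, 9 with limma-voom quality weights and 1 to 8 when single livers were left out. Against Tnfr1-/- the count was 1, with DESeq2 4, with quality weights 9, with no filter 2, with only the genotypes compared 0, and 0 to 6 without single livers. Against Casp8-/- Mlkl-/- it was 2, with DESeq2 4, with limma-voom 1, with quality weights 7, with only the genotypes compared 0, and 0 to 4 without single livers. Against the 8 others it was 5, with quality weights 9, and 4 to 8 without single livers. Leaving out both livers with the lowest TMM factors, a choice made after seeing the data, gave 9, 9, 7 and 9. For Casp8-/- Mlkl-/- livers against WT and against Tnfr1-/-, quality weights and that choice each gave 1 (Clec4a1) in place of 0. The causes of these shifts were not tested.

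The replicate numbers did not pair the livers (correlations of same-numbered deviations from -0.297 to 0.275). With the number as a block, 3 receptors were called against WT (Clec4e, adjusted p = 0.0598, and Clec7a, adjusted p = 0.0639, were not), 1 against Tnfr1-/-, 1 against Casp8-/- Mlkl-/- and 5 against the 8 others (edgeR).

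Against Casp8-/- Mlkl-/-, log2 fold changes turned to 0.10, 0.12 and 0.42 for Clec4n and to 0.06, 0.05 and 0.37 for Clec4a1 without Casp8-/- Mlkl-/- replicate 1, without Casp8-/- Tnfr1-/- replicate 3 and without both, and reached -0.40 and -0.49 at the other end when single livers were left out. No other sign turned in the comparisons of Casp8-/- Tnfr1-/- livers with one genotype. Ratios turned from the macrophage to the monocyte and neutrophil lists for Clec4e (-0.22 and -0.14), Clec4n (-2.35 and -2.27), Clec4a1 (-2.08 and -2.00), Clec4a2 (-1.32 and -1.23), Clec4a3 (-2.10 and -2.02), Clec7a (-1.56 and -1.48), Clec5a (-0.63 and -0.54) and Clec12a (-2.07 and -1.99). Without single livers, a choice partly made after seeing the data, the Clec4a3 macrophage ratio ran from 0.68 to 1.57. Over the monocyte list without Hp, chosen after seeing the data, the values were 0.74 for Clec4e, -1.39 for Clec4n, -1.12 for Clec4a1, -0.35 for Clec4a2, -1.14 for Clec4a3, -0.60 for Clec7a, 0.34 for Clec5a and -1.11 for Clec12a. Single livers were left out of the other ratios after seeing the data. Over the monocyte list the ratios ran from -0.68 to 0.12 (Clec4e), 0.89 to 1.74 (Clec4d), -2.45 to -1.37 (Clec4a1), -2.70 to -1.08 (Clec4a3), -1.97 to -0.92 (Clec7a), -0.93 to -0.066 (Clec5a) and -2.44 to -1.35 (Clec12a). Over the neutrophil list they ran from -0.44 to 0.17 (Clec4e), 1.13 to 1.76 (Clec4d), -2.01 to -0.68 (Clec7a) and -0.97 to 0.17 (Clec5a). Over the monocyte list without Hp they ran from 0.19 to 1.12 (Clec4e), -1.45 to -0.49 (Clec4a1), -1.68 to -0.21 (Clec4a3), -0.95 to -0.045 (Clec7a) and 0.087 to 0.81 (Clec5a). The ratios not given here kept their direction and their side of 0.05. Share differences, in percentage points, ran from 0.848 to 8.04 (Clec4e), -9.46 to -3.34 (Clec12a), -0.121 to 2.18 (Clec4a2), -3.28 to 0.316 (Clec4a3) and -1.96 to 1.62 (Clec7a). Clec4d had 5 to 17 counts in WT, which limits its fold change.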
